A study of Homo sapiens with 6 samples.

Results

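Of 10 genes listed for cytokinesis, the division of the cytoplasm at the end of mitosis, 9 were higher in HCT116 cells carrying an shRNA against GDPD5 (shGDPD5) than in cells carrying a control shRNA (shCtrl), and CHMP4B was not. Of all 16755 tested genes, 29.7% were higher by the same test. The 9 higher cytokinesis genes rose between 1.36-fold (CEP55) and 2.47-fold (PRC1). The genes were taken by symbol from a list for the central spindle, the contractile ring and the midbody. The list includes PIMREG, described below only as a mitotic protein. Of the genes, 10 of 10 were found among the 79302 rows of the gene table and had enough counts to be tested. HCT116 is a human colorectal cancer cell line, and RNA was sequenced in bulk from 3 shGDPD5 and 3 shCtrl libraries. Both groups were radioresistant derivatives of HCT116, obtained by repeated irradiation, and were collected 6 h after a dose of 4 Gy. The resistance and the irradiation are described in the published paper, whereas the labels give the cell line and the knockdown but neither of these. Which of the shRNAs designed against GDPD5 was used for sequencing is not stated, and nothing says that replicate libraries were grown as separate cultures, so p-values measure only the spread between these libraries, which may be technical.

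Cytokinesis begins in anaphase, when antiparallel microtubules are bundled between the separating chromosomes into the central spindle. Proteins gathered there activate the small GTPase RhoA at the cell equator, where a ring of actin and myosin contracts until the daughter cells are joined only by a thin bridge around the midbody. ESCRT-III filaments then cut this bridge, a step called abscission. Transcripts of many of these proteins accumulate in G2 and M phase, whereas ESCRT-III also works on other membranes throughout the cell cycle. In bulk RNA, a larger share of dividing cells and more RNA per dividing cell cannot be told apart.

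The libraries held 16715447 to 18510670 counts in the shGDPD5 group and 17602320 to 18076702 in the shCtrl group. GDPD5 itself, the shRNA target, was at 5.44, 5.55 and 5.19 CPM (counts scaled to a common library size with TMM normalization) in the shGDPD5 libraries, against 8.33, 11.6 and 9.75 CPM in the shCtrl libraries. Mitochondrially encoded RNAs took 12.2% to 12.9% of the counts in the shGDPD5 libraries and 10.9% to 11.4% in the shCtrl libraries, and their part in the differences below was not tested. Genes were called where the quasi-likelihood test of edgeR gave a Benjamini-Hochberg adjusted p under 0.05. By that rule 29.7% of the 16755 tested genes were higher and 30.1% were lower, 59.7% in all. The median log2 fold change of all tested genes was 0.01, and that of the 10 cytokinesis genes was 0.82. The 9 higher genes therefore stand against a background in which 29.7% of genes were higher. The 10 genes were chosen with earlier results of these data known, so this comparison is not independent support.

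The promoters show what these genes share in sequence. The RefSeq promoter table (GRCh38.p14, 250 bases before to 50 after each start) matched 8 of the 10 genes, without RACGAP1 and PIMREG, and lists 2 starts for ECT2. A gene is counted where any of its listed promoters holds the motif. A cell cycle genes homology region (CHR), an element known from promoters of genes expressed in G2 and M phase, was searched as TTTGAA or TTCGAA on both strands. It was found for 6 of the 8 genes, namely PRC1, ANLN, SHCBP1, ECT2, CEP55 and CIT, against 19.5% of all 27305 genes of the table (16.4% of its 35116 promoters). The CHR nearest the listed start is given in capitals within 30 bases, 5′ to 3′ in the direction of transcription, and a link of the motif to the changes was not tested. CEP55 and CIT carry it in the reverse orientation, which reads TTCAAA.
PRC1 (chr15:90994538-90994567, minus strand): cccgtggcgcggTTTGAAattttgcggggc
ANLN (chr7:36389830-36389859, plus strand): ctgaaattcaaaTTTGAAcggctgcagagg
SHCBP1 (chr16:46621348-46621377, minus strand): cgtccgcggaaaTTTGAAatggctgacggg
ECT2 (chr3:172750746-172750775, plus strand): agagcagcttagttTTTGAAtcggttgtgg
CEP55 (chr10:93496597-93496626, plus strand): gcagccgcgggaTTCAAActcccggaagcg
CIT (chr12:119877293-119877322, minus strand): ccgttcctcgggTTCAAAcgcggcggcggg

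The first base of these matches lay at -20 in PRC1 and ANLN and at -3 in CEP55, relative to the listed start, and at 11 in CIT, 15 in SHCBP1 and 35 in ECT2, where it lies at -242 from the other listed start. The same 6 genes had a match when the search was limited to 100 bases before to 50 after the start, where 9.1% of all genes had one. In ANLN a second match in the reverse orientation adjoins the one shown, at -26, and can be read in lower case in the 6 bases before it. A CCAAT box (CCAAT, both strands) occurred for 5 of the 8 genes, CEP55, CIT, ECT2, PRC1 and SHCBP1, against 39.7% of all genes. In PRC1, the CCAAT box stood upstream of the CHR, with its first base at -53.
PRC1, CCAAT box (chr15:90994571-90994600, minus strand): cgggacgcgacgCCAATcgcgacgaggctt

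E2F-type sites (TTTNNCG with each N being C or G, both strands) were found in the promoters of ARHGAP11A and CIT, against 10.4% of all genes. The CHMP4B promoter held none of the 3 motifs, and that of ARHGAP11A held only the E2F-type site. These matches describe letters in a window and do not show that a factor binds there.

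At the central spindle, RACGAP1, ECT2 and PRC1 rose to different degrees. RACGAP1 encodes a GTPase-activating protein that forms the centralspindlin complex with the kinesin KIF23. It was at 145.9, 154.4 and 152.0 CPM in the shGDPD5 libraries, against 108.6, 106.9 and 103.0 CPM in the shCtrl libraries. The groups did not overlap, and the difference was 1.42-fold (log2 fold change 0.51, standard error 0.05, adjusted p = 1.58e-06 from edgeR). ECT2, the exchange factor that RACGAP1 recruits and that activates RhoA, was at 198.4, 197.1 and 194.3 CPM in the shGDPD5 libraries, against 108.5, 93.5 and 96.0 CPM in the shCtrl libraries. It rose 1.98-fold (log2 fold change 0.98, standard error 0.06, adjusted p = 2.19e-08 from edgeR). The shCtrl replicate 1 was the highest of its group for both genes.

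PRC1 encodes the protein that bundles antiparallel microtubules, and it had the largest fold change of the 10 genes. It was at 185.7, 194.1 and 197.2 CPM in the shGDPD5 libraries, against 80.9, 75.9 and 76.3 CPM in the shCtrl libraries. Every shGDPD5 library stood at least 2.29-fold above every shCtrl library, and the log2 fold change was 1.31 (standard error 0.05, adjusted p = 5.47e-10 from edgeR). The PRC1 gene (ENSG00000198901, chromosome 15 from 90966038 to 90995629, minus strand, GENCODE release 29 on GRCh38) overlaps ENSG00000284946, a longer gene on the same strand, and 47.8% of the 75-base words of PRC1 transcripts also occur in transcripts of that gene. The split of reads between them is therefore uncertain. ENSG00000284946 was at 19.7, 19.0 and 18.3 CPM in the shGDPD5 libraries, against 6.06, 4.01 and 6.11 CPM in the shCtrl libraries. With the reads of both genes summed, an alternative chosen after the data were seen, the log2 fold change of PRC1 was 1.35.

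ARHGAP11A, also known as MP-GAP, encodes a GTPase-activating protein that restrains RhoA outside the equator. It was at 160.7, 159.6 and 163.4 CPM in the shGDPD5 libraries, against 112.3, 105.6 and 105.5 CPM in the shCtrl libraries, a 1.50-fold increase with no overlap (log2 fold change 0.58, standard error 0.05, adjusted p = 3.99e-07 from edgeR). Thus the activator ECT2 and the inhibitor ARHGAP11A of the same GTPase were both higher. ARHGAP11A has a human-specific partial copy, ARHGAP11B, on the same chromosome, and 7.06% of its 75-base words occur in ARHGAP11B transcripts and 9.92% in those of ENSG00000284906, another gene on that chromosome. ARHGAP11B was at 8.59, 9.87 and 9.76 CPM in the shGDPD5 libraries, against 3.20, 3.44 and 5.19 CPM in the shCtrl libraries (log2 fold change 1.25, adjusted p = 3.03e-05 from edgeR), and reads of the copies may have been exchanged. For ENSG00000284906 the log2 fold change was 1.00 (adjusted p = 0.00232 from edgeR), and its value of 19.3 CPM in shGDPD5 replicate 1 stood apart from 11.2 and 12.1 CPM in shGDPD5 replicates 2 and 3. With the reads of all 3 genes summed, the log2 fold change of ARHGAP11A was 0.64.

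In the contractile ring, both scaffold genes were higher. ANLN encodes anillin, which ties RhoA, actin, myosin and septins together at the furrow. It was at 130.2, 131.1 and 130.5 CPM in the shGDPD5 libraries, against 81.5, 76.5 and 76.5 CPM in the shCtrl libraries. This 1.67-fold difference (log2 fold change 0.74, standard error 0.05, adjusted p = 5.73e-08 from edgeR) was far larger than the spread within either group. CIT, which encodes citron kinase and its shorter isoform and serves the passage from ring to midbody, was at 47.2, 44.1 and 47.2 CPM in the shGDPD5 libraries, against 23.6, 25.6 and 25.1 CPM in the shCtrl libraries. It rose 1.86-fold (log2 fold change 0.90, standard error 0.06, adjusted p = 1.05e-07 from edgeR). Counts per gene do not separate the isoforms.

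**Figure D1:**
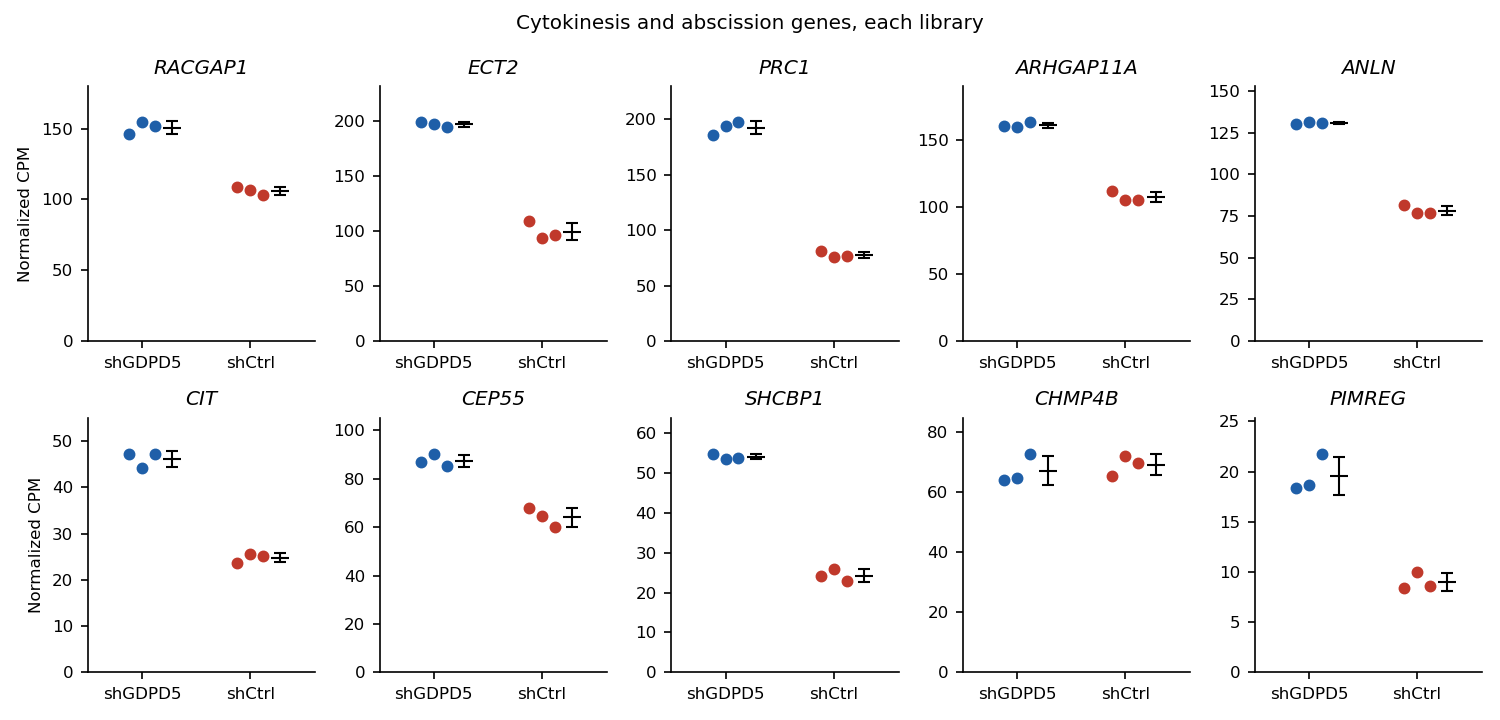
Levels in CPM (y axes from 0) of the 10 cytokinesis and abscission genes in 3 shGDPD5 (blue) and 3 shCtrl (red) libraries. Points are libraries, black marks are the mean and SD, and the groups are apart in every panel but that of CHMP4B.

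Among the midbody genes, CEP55 and SHCBP1 rose and the ESCRT-III gene CHMP4B did not. CEP55, the midbody protein that brings in ALIX and TSG101 and through them ESCRT-III, was at 86.8, 90.3 and 85.3 CPM in the shGDPD5 libraries, against 67.7, 64.6 and 59.9 CPM in the shCtrl libraries. It had the smallest increase of the 9 genes, 1.36-fold (log2 fold change 0.45, standard error 0.06, adjusted p = 2.24e-05 from edgeR). The lowest shGDPD5 library was still 1.26-fold above the highest shCtrl library. SHCBP1, which encodes a partner of centralspindlin at the midbody, was at 54.7, 53.5 and 53.8 CPM in the shGDPD5 libraries, against 24.1, 25.9 and 22.8 CPM in the shCtrl libraries. It rose 2.23-fold (log2 fold change 1.15, standard error 0.06, adjusted p = 1.16e-08 from edgeR).

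CHMP4B encodes the ESCRT-III subunit that forms the filaments of abscission. It was at 63.9, 64.7 and 72.6 CPM in the shGDPD5 libraries, against 65.2, 72.0 and 69.7 CPM in the shCtrl libraries. The groups overlapped, as they did for 35.1% of all tested genes, with the highest value in shGDPD5 replicate 3 and the lowest in shGDPD5 replicate 1. The fold change was 0.972 with a 95% interval of 0.884 to 1.07 (log2 fold change -0.04, adjusted p = 0.603 from edgeR), and the log2 fold change was 0.019 when libraries were scaled by their total counts alone. CHMP4B had 1094 to 1287 counts per library, so an increase of the size measured for CEP55 lay outside this interval.

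PIMREG, which encodes a small mitotic protein that binds the clathrin assembly protein PICALM, was the least abundant of the 10 genes in counts, with 145 to 386 per library. It was at 18.4, 18.7 and 21.8 CPM in the shGDPD5 libraries, against 8.44, 9.99 and 8.59 CPM in the shCtrl libraries. The increase was 2.17-fold (log2 fold change 1.12, standard error 0.10, adjusted p = 1.39e-06 from edgeR), with the widest interval of the 10 genes, from 1.86 to 2.54-fold. In the annotation 7.30% of its exon bases overlap PITPNM3 on the other strand, and it is not given whether reads were counted by strand. PITPNM3 fell to 5.23 ± 0.326 CPM in shGDPD5 libraries, against 8.61 ± 0.817 CPM in shCtrl libraries (SD, n = 3 each, adjusted p = 0.000233 from edgeR), so the counts of the overlapping genes differed in opposite directions.

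The increases were not of one size. PRC1, SHCBP1 and PIMREG were the 3 genes that also met a stricter threshold, a log2 change of 1 or more in either direction and p under 0.05 before adjustment, which 5.38% of tested genes met as higher and 6.6% as lower. Just under that fold lay ECT2 at 0.98 and CIT at 0.90, and the 95% intervals of PIMREG, ECT2 and CIT include 1. PRC1, with an interval of 1.20 to 1.41 on the log2 scale, lay above the intervals of RACGAP1 (0.40 to 0.61), CEP55 (0.33 to 0.57) and ARHGAP11A (0.48 to 0.68). Among all tested genes, PRC1 ranked at the 97.1 percentile of log2 fold change, CEP55 at the 79.5 percentile and CHMP4B at the 45.9 percentile. In all 9 higher genes each shGDPD5 library lay above each shCtrl library, as in 32.6% of all tested genes, while 32.4% of tested genes had each shGDPD5 library below each shCtrl library.

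**Figure D2:**
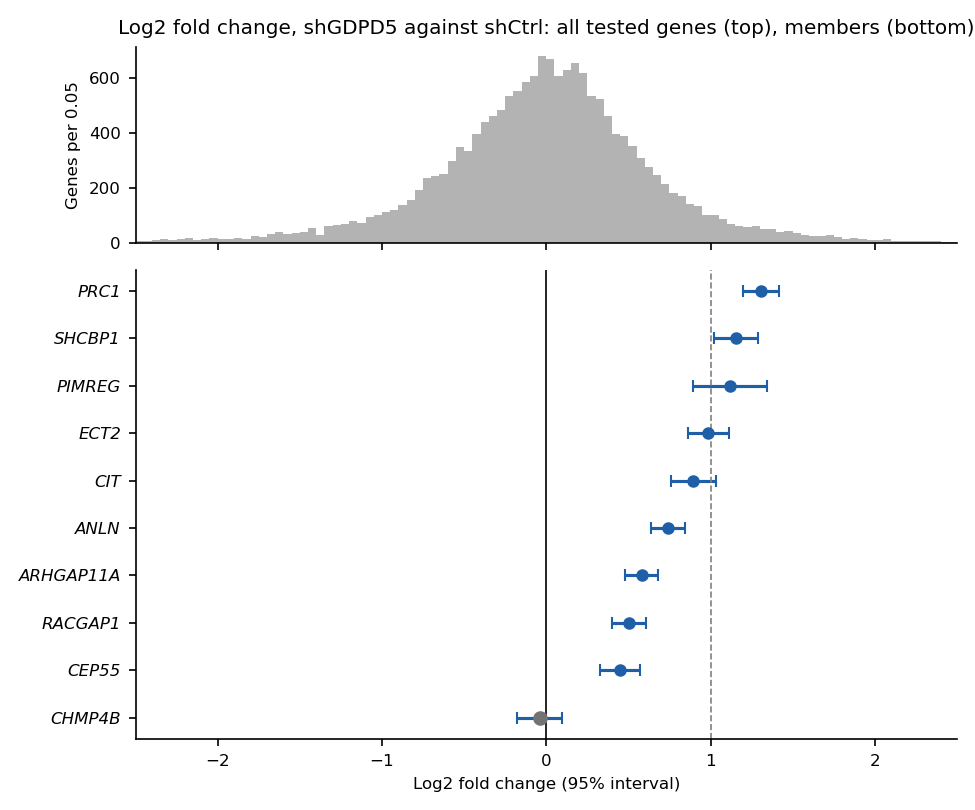
Log2 fold change between shGDPD5 and shCtrl (x axis), as a histogram of all tested genes (top, genes beyond the axis are not drawn) and for the 10 cytokinesis genes with 95% intervals (bottom). CHMP4B (grey) lies at -0.04 and PRC1 at 1.31, and the dashed line marks a log2 fold change of 1.

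The order of the transcript levels also differed between the groups. Levels are compared here as CPM per kilobase of merged annotated exons, which corrects for length but counts the exons of every isoform. In shGDPD5 libraries, CHMP4B (40.7 ± 2.91, SD, n = 3) was followed by ECT2 (35.8 ± 0.377), PRC1 (34.8 ± 1.08) and RACGAP1 (33.6 ± 0.975), where the mean ± SD ranges of PRC1 overlapped those of ECT2 and of RACGAP1, while those of ECT2 and RACGAP1 did not overlap. In shCtrl libraries, CHMP4B (41.9 ± 2.08) was followed at a distance by RACGAP1 (23.7 ± 0.641), CEP55 (19.6 ± 1.20), ECT2 (18.1 ± 1.47), ARHGAP11A (16.8 ± 0.603) and PRC1 (14.1 ± 0.507), where the mean ± SD range of ECT2 overlapped those of both of its neighbours. CIT was lowest in both groups, at 3.49 ± 0.135 CPM per kilobase in shGDPD5 libraries and 1.87 ± 0.0774 in shCtrl libraries. The mean of ECT2 thus lay above that of RACGAP1 in shGDPD5 libraries and below it in shCtrl libraries.

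**Figure D3:**
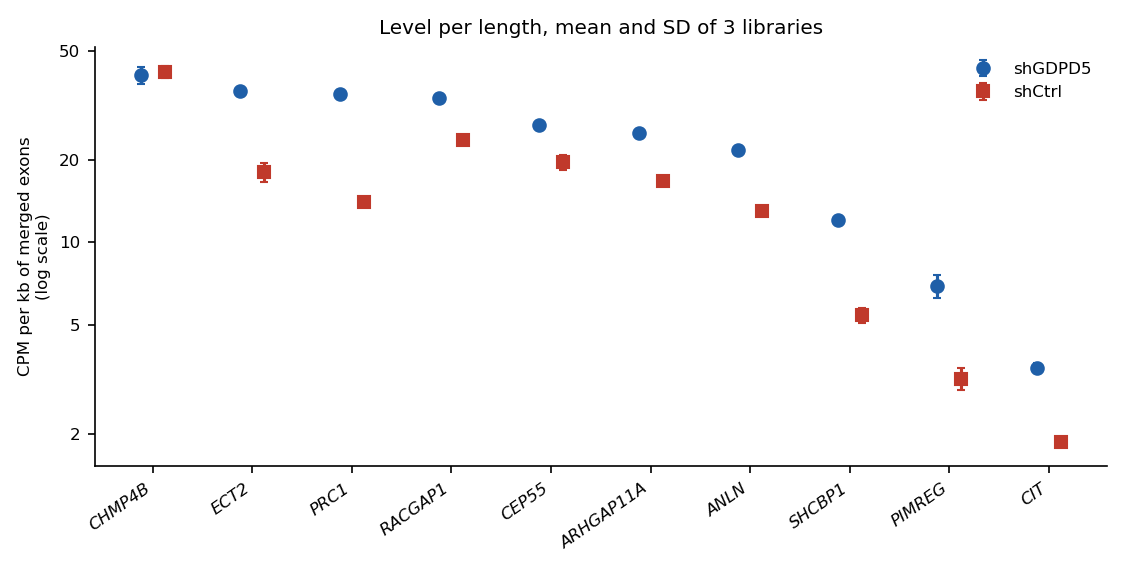
CPM per kilobase of merged exons (y axis, log scale) of the 10 genes, mean and SD of 3 shGDPD5 libraries (blue circles) and 3 shCtrl libraries (red squares). CHMP4B has the highest level in both groups, at 40.7 and 41.9, and CIT the lowest.

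Ratios of known partners within each library show these shifts without a scaling factor. The 4 ratios were chosen after the values were seen and are not corrected for length, so only their difference between libraries is read. For ECT2 to RACGAP1 the ratio was 1.36, 1.28 and 1.28 in the shGDPD5 libraries, against 0.999, 0.875 and 0.932 in the shCtrl libraries. KIF23 to RACGAP1, the subunits of centralspindlin, gave 0.934, 0.876 and 0.918 in the shGDPD5 libraries, against 0.632, 0.617 and 0.628 in the shCtrl libraries. For both ratios the lowest shGDPD5 library lay above the highest shCtrl library. PRC1 to KIF4A, the kinesin it recruits, gave 2.28, 2.22 and 2.43 in the shGDPD5 libraries, against 1.74, 1.84 and 1.79 in the shCtrl libraries. In each of the 4 ratios, the fourth being CHMP4C to CHMP4B, the groups did not overlap, and the exact permutation test, two-sided, gave p = 0.1 (n = 3 each, adjusted p = 0.1 over the 4 ratios), the smallest p this design allows.

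The CHMP4 family members are alternative subunits of the same filament. CHMP4A was at 32.1, 34.1 and 30.2 CPM in the shGDPD5 libraries, against 37.9, 40.6 and 38.5 CPM in the shCtrl libraries (log2 fold change -0.28, adjusted p = 0.00254 from edgeR). CHMP4C, known from the checkpoint that delays abscission, was at 25.1, 27.2 and 25.6 CPM in the shGDPD5 libraries, against 39.6, 33.2 and 35.9 CPM in the shCtrl libraries (log2 fold change -0.48, adjusted p = 0.000122 from edgeR). Both fell, while the groups overlapped for CHMP4B. As a result, the ratio of CHMP4C to CHMP4B was 0.392, 0.421 and 0.352 in the shGDPD5 libraries, against 0.607, 0.462 and 0.515 in the shCtrl libraries.

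**Figure D4:**
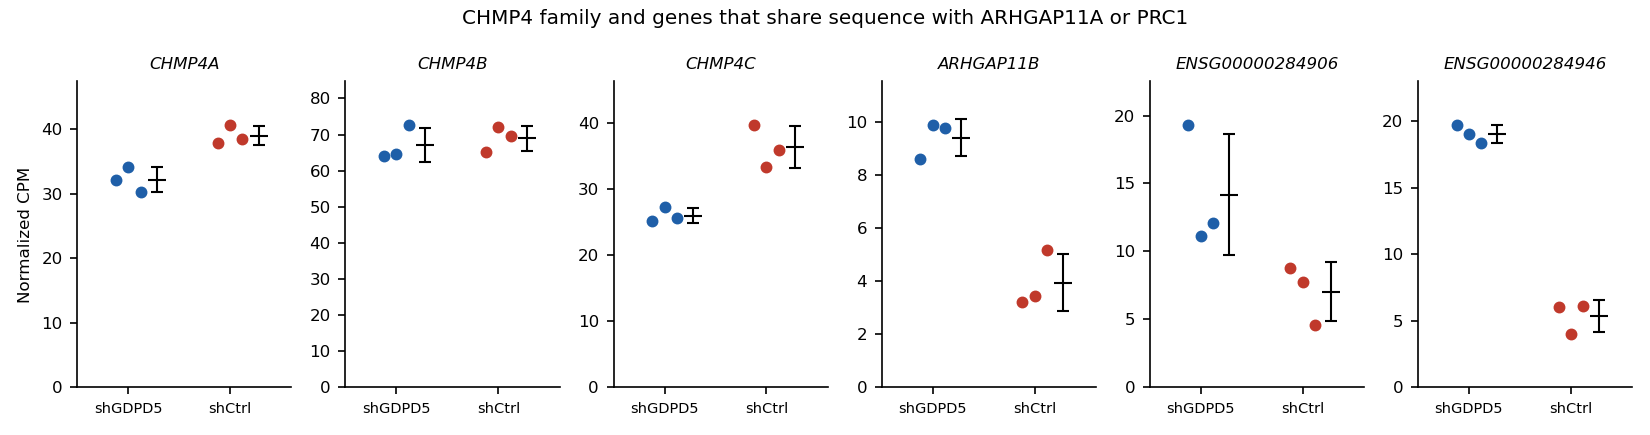
Levels in CPM (y axes from 0) of the CHMP4 family and of the genes that share transcript sequence with ARHGAP11A or PRC1, in 3 shGDPD5 (blue) and 3 shCtrl (red) libraries, with mean and SD in black. CHMP4A and CHMP4C lie lower and the other genes apart from CHMP4B higher in every shGDPD5 library.

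The rest of the pathway was described with lists that share no gene with the 10. They were written from general knowledge but with earlier results of these data known, so their counts are not independent support. Of 12 central spindle motors and kinases, 10 passed the edgeR test as higher and 0 as lower, against 29.7% and 30.1% of all tested genes. Their median log2 fold change was 1.02, against 0.01 over all tested genes. INCENP, the scaffold of the chromosomal passenger complex, was at 92.3, 86.7 and 93.1 CPM in the shGDPD5 libraries, against 32.8, 31.3 and 32.1 CPM in the shCtrl libraries, the largest fold change of that list at 2.83-fold. KIF23, BIRC5 (survivin, another passenger protein) and the midzone kinesin gene KIF20A rose 2.06-fold, 2.19-fold and 2.24-fold. The microtubule-binding CLASP1 and CLASP2 did not pass, with log2 fold changes of 0.09 and 0.11 (adjusted p = 0.189 and 0.184 from edgeR).

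In the RhoA pathway and contractile ring list the share of calls was near that of all genes. Of its 27 genes, 9 were higher, 9 were lower and 9 did not pass, against 29.7% higher and 30.1% lower among all tested genes, and the median log2 fold change was -0.03, against 0.01. RHOA itself had 0.06 (adjusted p = 0.195 from edgeR), and MYH9, the main non-muscle myosin II heavy chain of many cells, had -0.03 (adjusted p = 0.635 from edgeR). Of the other heavy chain genes listed, MYH10 was higher, with a log2 fold change of 0.63 (adjusted p = 1.04e-06 from edgeR). MYH14 did not pass, with -0.15 (adjusted p = 0.133 from edgeR). DIAPH3 and DIAPH1, formins that build actin filaments under RhoA, rose 1.94-fold and 1.58-fold, whereas DIAPH2 fell to 0.472 of its control level. CFL1 (cofilin) and MYL6, a myosin light chain, rose 1.93-fold and 1.80-fold. ARHGEF2 (GEF-H1), a microtubule-bound exchange factor for RhoA, fell furthest, to 54.6, 52.1 and 54.8 CPM in the shGDPD5 libraries, against 150.4, 170.5 and 177.7 CPM in the shCtrl libraries. RHOB and ACTG1 also fell, with log2 fold changes of -1.06 and -0.47, whereas the other actin gene listed, ACTB, rose 1.33-fold (adjusted p = 2.32e-05 from edgeR).

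The ESCRT and abscission list was described in the same way. Of 31 genes, 30 were tested (SPART is listed at 0 in every library), and of these 8 were higher, 14 were lower and 8 did not pass, against 29.7% higher and 30.1% lower among all tested genes. The median log2 fold change was -0.09, against 0.01. The lower genes included CHMP6 (-0.96), VPS28 (-0.66), TTC19 (-0.61) and CHMP3 (-0.50), and the higher ones included ZFYVE26 (0.58), SNF8 (0.41), CHMP1A (0.33) and ZFYVE19 (0.32), all as log2 fold changes. Of the proteins that CEP55 brings in, PDCD6IP (ALIX) was lower, at -0.27 on the log2 scale (adjusted p = 0.000689 from edgeR), and TSG101 was at 0.04 (adjusted p = 0.499 from edgeR). The count of higher genes in this list was 5 without shGDPD5 replicate 1, 2 or 3 and 5 without shCtrl replicate 3. CHMP4B, with -0.04, thus lay near the middle of this list and not near the other cytokinesis genes.

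**Figure D5:**
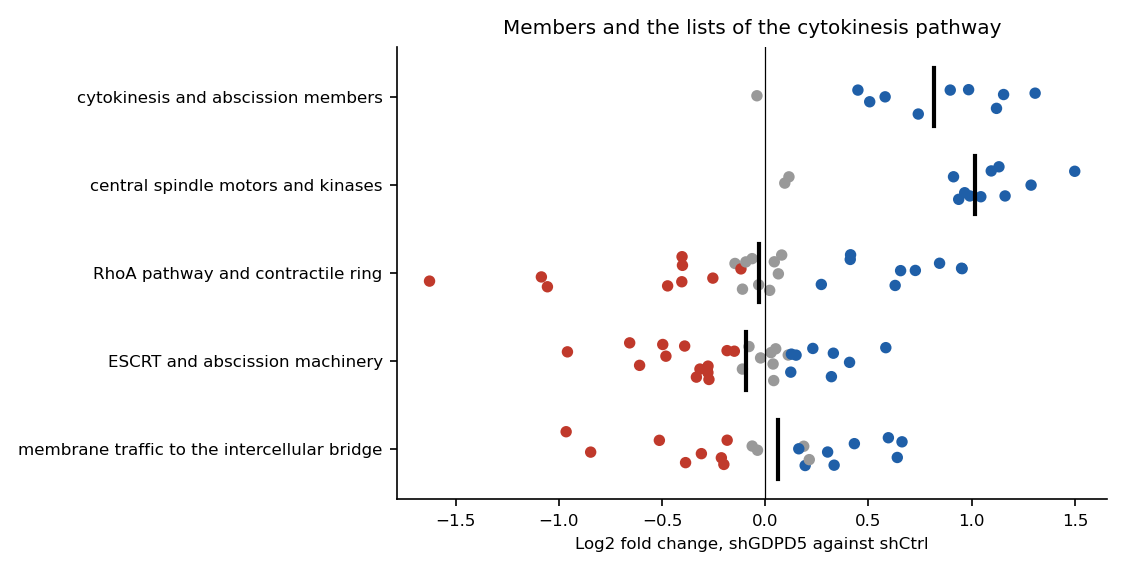
Each point is a gene of the 10 or of the 4 pathway lists (rows), placed by its log2 fold change between shGDPD5 and shCtrl (x axis), with calls as higher in blue, calls as lower in red, genes that did not pass in grey and medians as black lines. The median is 1.02 in the central spindle list and -0.09 in the ESCRT list.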

How the data were processed

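RNA-seq was analysed for 6 HCT116 libraries, 3 shGDPD5 and 3 shCtrl, grouped by their labels. The values deposited by the authors are estimated counts in 1 table of 79302 genes, of which 370 carry a name given during processing. The labels name a SMARTER mRNA-Seq kit. Aligner, counter, strand setting and build were not given in the sources used here, and these choices decide how reads of overlapping or copied genes are split.

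The expected counts were rounded to whole numbers (a change of at most 0.5), filtered with the default of edgeR (minimum count 10), and scaled with TMM. edgeR 4.0.16 (R 4.3.3) then gave quasi-likelihood tests, with Benjamini-Hochberg adjustment over 16755 genes. Standard errors and 95% intervals follow from the log2 fold change and its F statistic. The test was checked on simulated data. Replicates differed by more than sampling noise (chi-square per gene 1.66 to 7.10). Symbols came from the gene name table supplied, exon lengths, overlaps and 75-base words from GENCODE release 29 on GRCh38, and promoters from RefSeq.

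The 10 genes and the lists were chosen with earlier results of these data known. Genes named were the 10, GDPD5, the paralogs and overlapping genes, and up to 4 genes of each list and direction with the smallest adjusted p. RHOA, MYH9, MYH10, MYH14, ACTB, CLASP1, CLASP2, TSG101, PDCD6IP and KIF4A were named outside this rule, after their values were seen. So were EXOC1, EXOC2, EXOC3, EXOC5, EXOC6 and EXOC7. Alternatives were RLE and upper quartile factors, total counts alone, DESeq2 1.42.0, limma-voom (limma 3.58.1), 2 other filters, a replicate block, each library left out and, chosen after the data were seen, reads summed with genes of shared sequence.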

Additional observations from a re-analysis of the deposited data

How the results depend on the processing

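Each of the 9 higher genes was past an adjusted p of 0.05 in the same direction under all 15 alternatives, and CHMP4B passed under 0 of them. The log2 fold change of PRC1 ranged from 1.29 to 1.37, that of CEP55 from 0.40 to 0.51 and that of CHMP4B from -0.10 (without shGDPD5 replicate 3) to 0.019. The value 0.019 came with total counts only as the scaling, the 1 change of sign among the 10 genes. Total counts alone moved the median gene by 0.06 on the log2 scale. The stricter threshold on fold (an absolute log2 change of 1 or more, with unadjusted p under 0.05) left 902 higher and 1105 lower genes and 3 of the 10. The higher genes of the ESCRT list numbered 5 with no filter on low counts and 5 to 9 with 1 library left out, against 8. With the shorter promoter window, 0 of the 8 genes had an E2F-type site. The cause of these differences was not tested, apart from the stricter threshold and the shorter window themselves.

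Same-numbered libraries did not deviate together (correlations of -0.07, -0.05 and -0.04 over tested genes), and 0 of 6 libraries correlated best with its own number. The values thus showed no sign of pairing by number. They cannot show that same-numbered libraries were handled separately, and the labels do not say. With a replicate block, 4792 genes were higher and 4853 lower, against 4971 and 5035, and 9 of the 10 genes were higher. Depth limits the values of genes with few counts, such as CHMP4BP1, a pseudogene of CHMP4B with 1 to 10 counts per library, which was not tested.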

Other observations

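Genes of membrane traffic to the intercellular bridge, deliver vesicles before abscission. Of 20 such genes, 8 were higher, 8 were lower and 4 did not pass at an adjusted p under 0.05 from edgeR, against 29.7% higher and 30.1% lower among all tested genes. Their median log2 fold change was 0.06, against 0.01. The SNARE genes VAMP8 and STX2 rose 1.58-fold and 1.56-fold, RAB11FIP3, an effector of RAB11 at the furrow, rose 1.51-fold, and EXOC8 rose 1.35-fold. Of the other exocyst genes, EXOC6B was at 42.8, 42.7 and 46.0 CPM in the shGDPD5 libraries, against 89.3, 84.0 and 83.3 CPM in the shCtrl libraries, and EXOC4 fell to 0.556 of its control level. ARF6, a GTPase of the recycling route, and OCRL, a phosphoinositide phosphatase of the bridge, fell with log2 fold changes of -0.51 and -0.39. EXOC1, EXOC2, EXOC6 and EXOC7 were also lower, with log2 fold changes of -0.20, -0.31, -0.18 and -0.21. EXOC3 was higher, with 0.16, and EXOC5 did not pass, with -0.06 (adjusted p = 0.506 from edgeR). Subunits of the same exocyst complex thus moved in opposite directions, with more of those listed lower than higher.

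Of 8 epithelial markers, 6 had at least 10 counts in every library, and CDX1 was listed at 0 in all of them. Their summed level was 2644 to 2753 CPM in the shGDPD5 libraries and 3404 to 3881 CPM in the shCtrl libraries. Of 5 leukocyte markers, 1 had at least 10 counts in every library, and CD3E was at 0. These markers summed to 3.10 to 3.21 CPM in the shGDPD5 libraries and 7.16 to 11.6 CPM in the shCtrl libraries. Of 4 endothelial markers, 0 reached that count in every library. They summed to at most 1.30 CPM in any library, with CDH5 at 0. Of 5 fibroblast markers, 1 reached that count in every library, and COL1A2, DCN and LUM were at 0. Fibroblast markers summed to 20.5 to 23.9 CPM in the shGDPD5 libraries and 18.9 to 21.3 CPM in the shCtrl libraries.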
